A study of Homo sapiens with 6 samples.

Results

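The cytosolic ribosomal protein genes encode the proteins of the small (40S) and large (60S) subunits of the ribosome that translates nuclear-encoded mRNAs. Their members were taken from the gene table by symbol: RPS or RPL followed by a number and an optional A, L or X, together with RPL36AL, RPLP0, RPLP1, RPLP2, RPSA, RPS4X and RPS27L, without the RPS6K kinases and without pseudogenes. The rule uses no measured value and found 82 of 28008 symbols, 32 of the small subunit and 50 of the large subunit. FAU and RACK1, which also encode ribosomal proteins, fall outside this rule and are given separately.

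RNA-seq was performed on NCI-H660 (H660) cells, a human neuroendocrine prostate cancer (NEPC) line. The cells carried a doxycycline (DOX) inducible short hairpin RNA against MUC1 in a lentiviral vector and were selected in puromycin. One group of 3 libraries came from cells given 0.1% DMSO as the vehicle (DOX-negative), and the other group of 3 from cells given 500 ng/ml DOX for a week (DOX-positive). Both groups carried the same hairpin in cells of 1 line, and no DOX-treated line without it was analysed here, so DOX itself and MUC1 silencing cannot be told apart. The cells were cultured in triplicate, and the p-values below measure the spread between these libraries.

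Total counts were between 47620696 and 74061121 per library. MUC1, the targeted gene, had levels in CPM, counts relative to the TMM-scaled total of a library, of 88.2, 90.2 and 79.6 without DOX and of 36.7, 37.2 and 29.9 with DOX, a log2 fold change of -1.32 (SE 0.10, edgeR adjusted p = 0.000173). All 6 neuroendocrine markers examined were expressed, with summed levels of 752 to 836 CPM without and 624 to 725 CPM with DOX. INSM1 (103, 119 and 114 CPM without, 89.7, 89.3 and 66.4 with DOX) and NCAM1 (186, 217 and 198.5 without, 156, 145 and 123 with DOX) were lower with DOX. CHGB was higher (67.1, 63.9 and 49.2 without, 67.3, 70.7 and 81.9 with DOX), with its closest libraries at 67.1 and 67.3 CPM. The groups of CHGA, SYP and ENO2 overlapped. No p-value is given for these markers, and groups that did not overlap were seen in 28.1% of all genes tested. The part of the marker differences in the results below was not tested. The prostate luminal markers KLK2 and KLK3 were each under 1 CPM, as were 3 of the 4 immune markers. The 5 fibroblast markers summed to 25.1 to 30.6 CPM without and 23.4 to 27.9 CPM with DOX, mostly from COL1A1 and COL1A2, with DCN and PDGFRB under 1 CPM.

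The proteins join the ribosomal RNAs in fixed proportions, and a dividing cell makes their mRNAs in large amounts. The mRNAs share a start known as the 5′ terminal oligopyrimidine (TOP) motif, a C followed by a run of pyrimidines, through which mTORC1 and the RNA-binding protein LARP1 set how well they are translated. Cancer cells with high MYC activity are known for a high output of ribosome components, and MYC is one of the factors that raise transcription of these genes. RNA-seq measures the mRNA level and not its translation.

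The starts of the genes that the results turn on are printed to show this shared feature and the members that lack it at the annotated start. Windows of 25 bases, 10 before and 15 from the annotated start, were read from RefSeq sequences of build GRCh38.p14, 5′ to 3′ on the gene's strand, and capitals mark the pyrimidine run of a start that has the motif. RPLP0 (chr12:120201097-120201121, minus strand), RPLP1 (chr15:69452808-69452832, plus) and RPLP2 (chr11:809957-809981, plus) encode the acidic stalk proteins and RPL12 (chr9:127451392-127451416, minus) the protein at the stalk base. RPL41 (chr12:56116623-56116647, plus), RPS27 (chr1:153990752-153990776, plus), RPS10 (chr6:34426055-34426079, minus), RPL17 (chr18:49492451-49492475, minus) and RPS3A (chr4:151099618-151099642, plus) lay near the ends of the ranked changes. RPS6 (chr9:19380222-19380246, minus) is the substrate of the S6 kinases. RPL17, RPS7 (chr2:3575250-3575274, plus) and the paralogs RPS27L (chr15:63157463-63157487, minus) and RPL36AL (chr14:49620612-49620636, minus) lacked a C at the annotated start followed by at least 4 pyrimidines. RPL36A (chrX:101391001-101391025, plus), the partner of RPL36AL, had this run. Each window covers the end of the promoter and the first bases of exon 1.
RPLP0: ggcgcgaggcCCTTCTCTCgccagg
RPLP1: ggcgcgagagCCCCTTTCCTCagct
RPLP2: tcggcgccttCCTTTTCCTCCCTgt
RPL12: cgatttccggCCTCTCggctttcgg
RPL41: cttcgcctttCTCTCggccttagcg
RPS27: cgctttcgctCCTTTCCggcggtga
RPS10: catgctccttCCTTTCCagccccgg
RPS3A: cccacttccgCCCTTTTggctctct
RPS6: gaagttggccCTCTTTTCCgtggcg
RPL36A: ctcgcggtttCTTTCTTTCCgcgcc
RPL17: ttccctaagcagcctgaggtgagtg
RPS7: cgccctcctcctcgcgctgtttccg
RPS27L: gatgccgagcgcagatcgcttgcag
RPL36AL: tcttccctttcctgttaggcgagag

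A start sequence was found for 65 of the 82 members. A C at the annotated start followed by at least 4 pyrimidines on the gene's strand was present in 42 of them (64.6%), against 4.04% of 27305 genes of the table with a sequence and 4.6% of 15842 protein-coding genes. When the C was allowed to lie within 5 bases of the start on either side, 51 members had the run (78.5%), as did 21.1% of all genes and 22.1% of protein-coding genes. RPS7 and RPL36AL met this wider criterion, and RPL17 and RPS27L did not. The change between groups was also given by the motif at the annotated start. Members without it there included RPS7 and RPL36AL, which had the run within 5 bases. The starts used in these cells were not measured. The median log2 fold change was 0.01 in the 42 tested members with the motif at the start (24 positive, range -0.40 to 0.24) and -0.0020 in the 22 without it (10 positive, range -0.19 to 0.11).

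DOX exposure was compared with vehicle to ask which transcripts respond when MUC1 is silenced. Of the 82 members, 79 passed the low-count filter, and 0 of these 79 passed an adjusted p of 0.05 in either direction by the edgeR quasi-likelihood test. Over all 17026 genes tested, 4.87% passed, 2.91% as higher and 1.96% as lower with DOX. Among the 4414 genes with a mean of at least 50 CPM, a range that holds 75 of the members, 4.6% passed. DESeq2 also called 0 members. At an unadjusted p under 0.05 there were 2 members by either tool, against 21.1% of all genes by edgeR, and these were RPLP1 and RPS10 in the edgeR fit. The groups did not overlap in 4 members (RPL15, RPS3A, RPS7 and RPS10), all with lower values with DOX, against 28.1% of all genes.

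The members lay close to 0 as a group. Their median log2 fold change was 0.0086 (interquartile range -0.04 to 0.07), and that of all genes tested was 0.00034 (interquartile range -0.13 to 0.13). Positive values were seen in 43 members and negative values in 36. This split moved with the setting, to 38 of 79 positive with no scaling factors, 56 of 78 in the TPM fits with a filter, 28 of 79 without DOX-positive 2, 27 of 79 without DOX-negative 3 and 62 of 79 without DOX-negative 1, and 54 members changed sign in at least 1 alternative. The median SE of a member was 0.08 on the log2 scale and the median half-width of the 95% interval was 0.18. The interval lay within ±0.5 for 78 of the 79 members, RPS10 being the exception, and covered 0 for 77. The group means of 74 members differed by less than 10%. Changes smaller than these intervals were not detectable with 3 libraries a group.

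**Figure D1:**
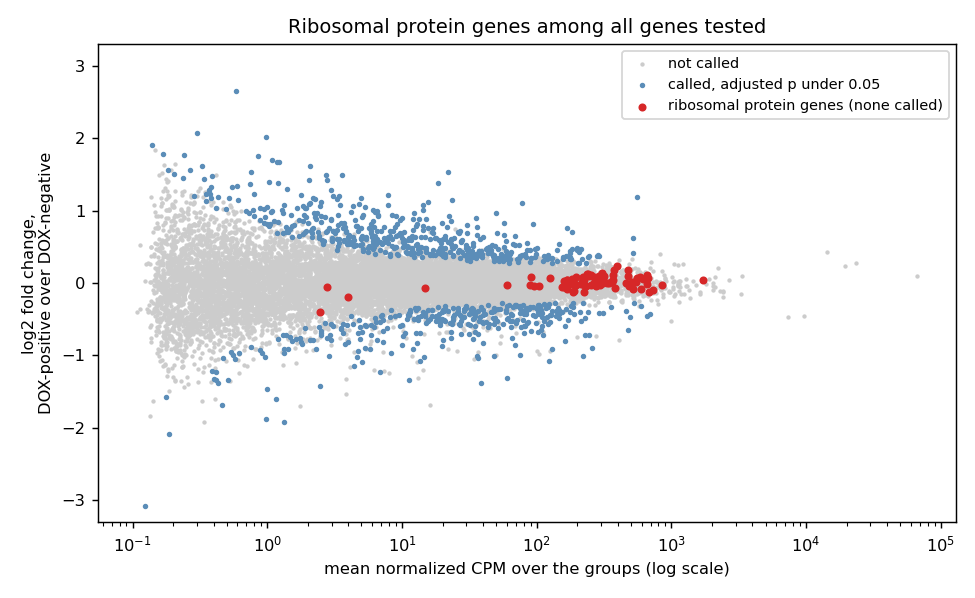
Log2 fold change of DOX-positive over DOX-negative (vertical axis) against mean normalized CPM (horizontal axis, log scale) for the 17026 genes tested, with the 79 ribosomal protein genes in red and the 829 called genes in blue. The red points lie in the band around 0, between -0.40 and 0.24. The 75 members with a mean of at least 50 CPM lie between -0.13 and 0.24, and the lowest point is RPS10 at 2.48 CPM.

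**Figure D2:**
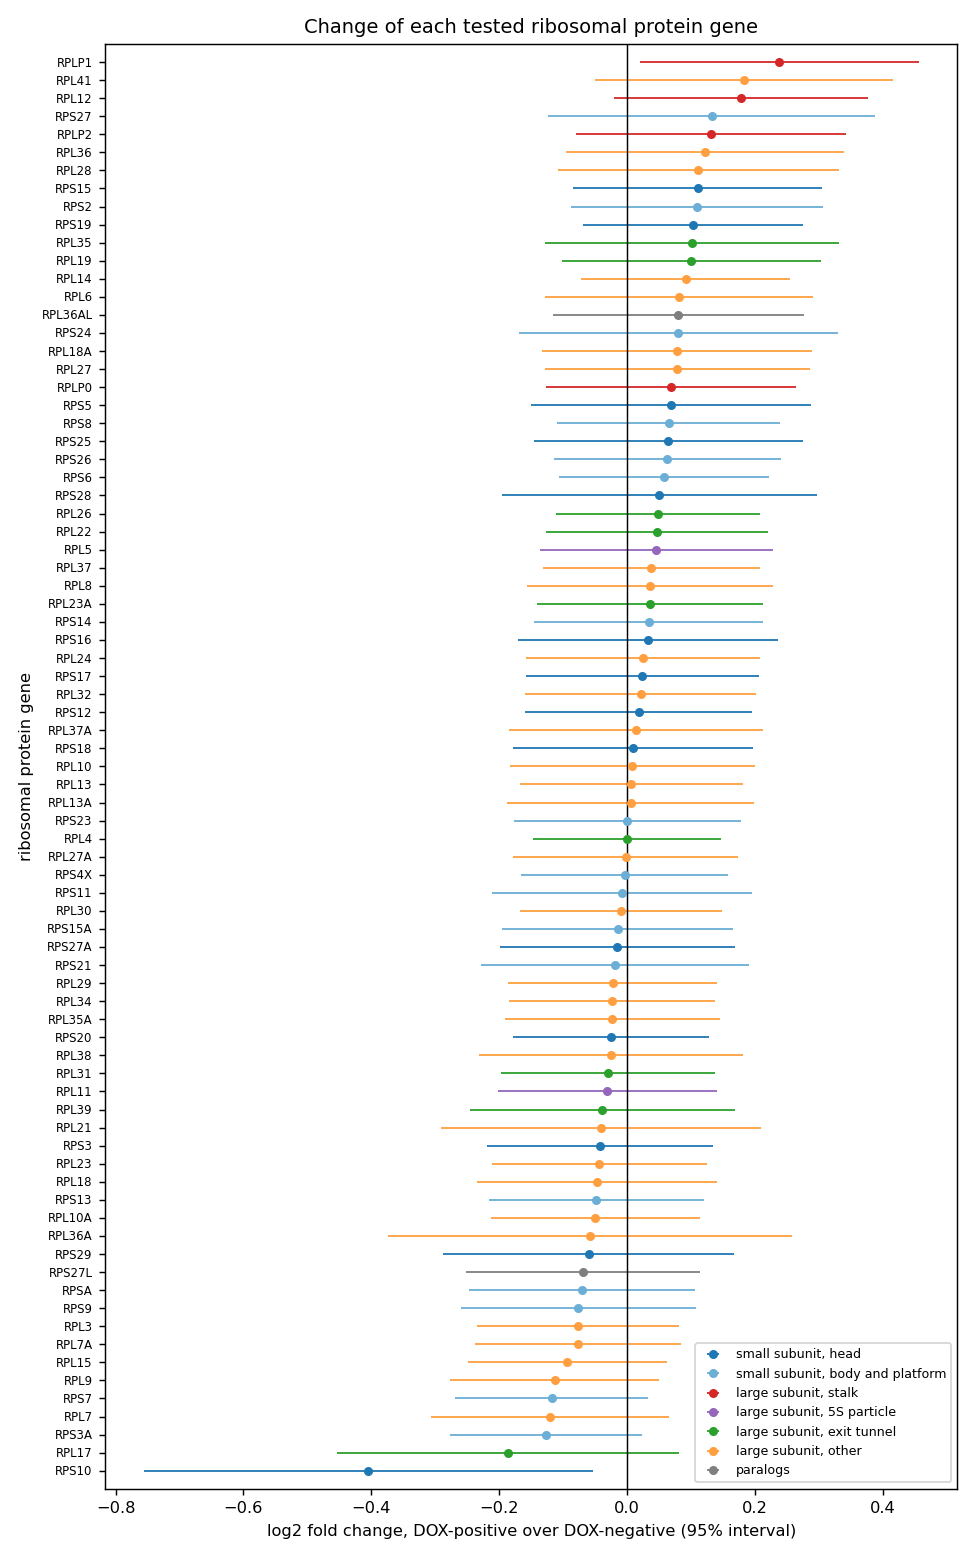
Log2 fold change and 95% interval of each of the 79 tested ribosomal protein genes, ordered by value and coloured by the part of the ribosome. The intervals of 77 genes cross 0; RPLP1 at the top and RPS10 at the bottom do not.

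The summed output of the genes was also similar in both groups. The members held 2.71, 2.57 and 2.40% of all counts in DOX-negative libraries 1 to 3 and 2.55, 2.66 and 2.52% in the DOX-positive libraries, means of 2.56% ± 0.157 and 2.58% ± 0.0741 (SD, n = 3 each). The difference of 0.0184 percentage points was smaller than either SD, and the ranges overlapped. Small-subunit genes took 0.995% ± 0.0582 and 1.00% ± 0.0253, and large-subunit genes 1.56% ± 0.10 and 1.58% ± 0.0496 (SD, n = 3). The labels name a stranded mRNA kit, but 5 structured RNAs, most of them not polyadenylated, held 11.1 to 16.9% of the counts and 71.6 to 79.5% of the TPM of a library, so the library type is uncertain and both scales depend on these RNAs. Of protein-coding counts alone the members held 3.06% ± 0.154 without and 3.11% ± 0.189 with DOX (SD, n = 3). The ratio of large- to small-subunit counts was 1.57 in both groups, with SDs of 0.0250 and 0.0169 (n = 3). In bulk RNA, fewer cells with a transcript and less of it per cell cannot be told apart.

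Levels between genes were compared in TPM, the length-scaled unit that the authors deposited. The median member had 177 TPM over the 6 libraries, 58 members had at least 100 TPM and 7 were under 10 TPM. RPL37A had the highest level (1214 TPM), followed by RPL8 (970 TPM), RPL30 (968 TPM), RPLP1 (658 TPM), RPL41 (648 TPM) and RPL35 (627 TPM). These genes encode proteins of the large subunit. RPL37A had 1201 ± 273 TPM without and 1227 ± 219 TPM with DOX, RPL8 had 953 ± 143 and 986 ± 121 TPM, and RPL30 had 962 ± 169 and 974 ± 196 TPM (SD, n = 3). RPL37A was above RPL8 in each of the 6 libraries, and RPL30 was above RPLP1 in each, while RPL8 and RPL30 changed order between libraries. The gene length implied by the ratio of counts to TPM ran from 0.25 to 9.73 times the median member. RPS29, a head protein of the small subunit with one of the shortest mRNAs of the family, had the longest implied length, and its 153 CPM became 10.9 TPM, so the order in TPM carries the length that each gene was given.

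At the low end of the tested members were RPL36A (0.533 TPM), RPS10 (1.89 TPM), RPL17 (2.14 TPM) and RPS27L (8.84 TPM). RPS27L is a paralog known as a target of p53, and the other three encode core proteins of the ribosome. RPL36A had 2.55, 2.59 and 3.34 CPM without and 2.79, 2.56 and 2.74 CPM with DOX, while its paralog RPL36AL had 94.6, 94.0 and 75.8 CPM without and 90.2, 95.8 and 93.7 CPM with DOX. RPL36A, RPS10 and RPL17 share their loci with the readthrough entries RPL36A-HNRNPH2, RPS10-NUDT3 and RPL17-C18ORF32, which were each listed with 0 counts in all 6 libraries. How the counting treated reads that fit both a gene and its readthrough entry was not given in the sources used here, and its part in these low levels was not tested.

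The 4 stalk genes had the highest median log2 fold change of the roles (0.16, all 4 positive), and 0 of them passed. The stalk is the mobile arm of the large subunit that recruits elongation factors. RPLP1 had 390.5, 379 and 319 CPM without and 376, 471 and 436 CPM with DOX, so 1 DOX-positive library lay below 2 of the DOX-negative ones. Its log2 fold change was 0.24 (SE 0.10, 95% interval 0.02 to 0.46, edgeR adjusted p = 0.197), and over leaving out each library in turn it was 0.15 to 0.32, the lowest without DOX-negative 3.

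RPL12, which forms the base of the stalk with RPLP0, had 385, 357 and 313 CPM without and 364, 427 and 403 CPM with DOX (log2 fold change 0.18, SE 0.09, edgeR adjusted p = 0.290). RPLP2, the partner of RPLP1, had 248, 240.5 and 198 CPM without and 239, 277 and 237 CPM with DOX. Its groups overlapped, and its log2 fold change of 0.13 (SE 0.10) became 0.03 without DOX-negative 3 and 0.06 without DOX-positive 2. RPLP0, often used as a reference gene in qRT-PCR, had 675, 611 and 669.8 CPM without and 617, 771 and 664 CPM with DOX. Its log2 fold change of 0.07 (SE 0.09) ranged from -0.02 to 0.14 over leaving out each library, so the shared direction of the 4 genes was not kept in every such fit.

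**Figure D3:**
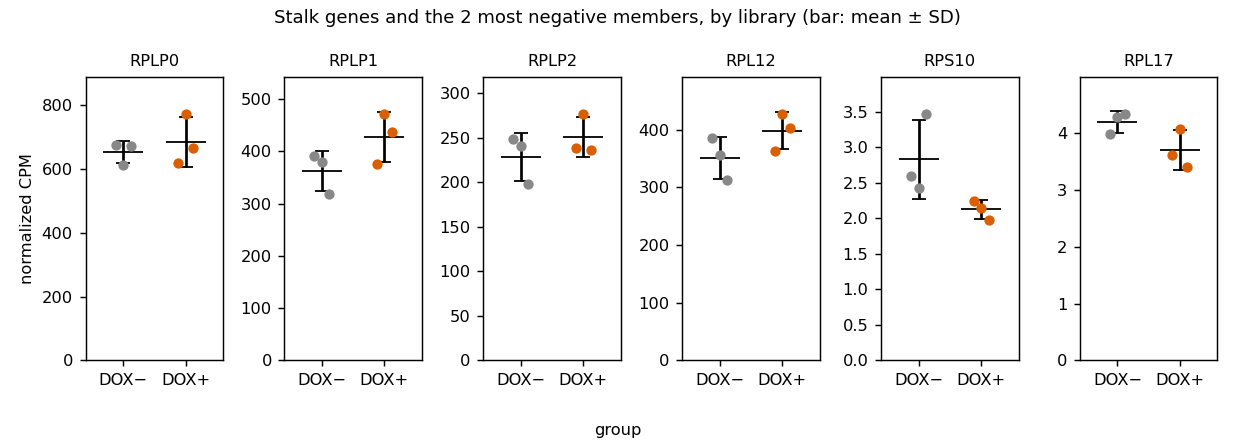
Normalized CPM of the 4 stalk genes and of RPS10 and RPL17 in each library (points), with the mean and SD of each group of 3 (bars). The stalk genes overlap between groups; the RPS10 values are all below 3.5 CPM, with the DOX-positive points under the DOX-negative ones.

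The other large-subunit genes were also not called. RPL5 and RPL11, which join the 5S rRNA and bind MDM2 when ribosome assembly is disturbed, had log2 fold changes of 0.05 (SE 0.08) and -0.03 (SE 0.08). RPL5 had 383, 385 and 319 CPM without and 372, 368 and 383 CPM with DOX, and RPL11 had 208, 189 and 193 CPM without and 183, 210.2 and 183 CPM with DOX. Both pairs of groups overlapped. The 9 proteins around the exit tunnel, where the new peptide leaves the ribosome, had a median of 0.04 (5 positive and 4 negative), with RPL17 the lowest at -0.19 (SE 0.12) and 3.97, 4.28 and 4.33 CPM without against 3.61, 4.07 and 3.39 CPM with DOX.

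The remaining 31 large-subunit genes had a median of -0.0020 (15 positive and 16 negative). RPL41, which encodes the shortest ribosomal protein, was the highest of them at 0.18 (SE 0.11), with 495, 465 and 384 CPM without and 443, 555 and 528 CPM with DOX. RPL7 was the lowest at -0.12 (SE 0.09), with 749, 735 and 651 CPM without and 673, 594 and 698 CPM with DOX. RPL15 had 758, 762 and 759 CPM without and 684, 757 and 696 CPM with DOX. Its groups did not overlap, yet 1 DOX-positive library (757 CPM) lay just below the lowest DOX-negative one (758 CPM), and its log2 fold change was -0.09 (SE 0.07, edgeR adjusted p = 0.498). RPL3 and RPL10, 2 of the proteins nearest the functional centres of the subunit, had values of -0.08 (SE 0.07) and 0.0086 (SE 0.09). RPL39, one of the 9 exit-tunnel genes and not of these 31, had -0.04 (SE 0.10).

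Of the small subunit, the 14 head proteins had a median of 0.02 (9 positive and 5 negative) and the 17 body and platform proteins a median of -0.0037 (8 positive and 9 negative). RPS3, which lines the mRNA entry channel, had 509, 470.2 and 486 CPM without and 452, 523 and 448 CPM with DOX (log2 fold change -0.04, SE 0.08). RPS6 had 641, 597 and 561 CPM without and 611, 614 and 649 CPM with DOX (0.06, SE 0.08). The groups overlapped in both genes. RPSA, whose protein is also the laminin receptor precursor, RPS27A, made as a fusion with ubiquitin, and RPS4X, encoded on the X chromosome, had values of -0.07, -0.02 and -0.0037, with SEs of 0.08, 0.08 and 0.07.

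RPS3A, a platform protein, had 237, 225 and 240.1 CPM without and 219.9, 205 and 218 CPM with DOX, and RPS7, a body protein, had 199, 186 and 193 CPM without and 177, 184 and 169.9 CPM with DOX. In both genes every DOX-positive library lay below every DOX-negative library, by small margins. Their log2 fold changes were -0.13 and -0.12 (SE 0.07 each), with edgeR adjusted p of 0.323 and 0.362. RPS27 showed the opposite sign at 0.13 (SE 0.12), with 309.8, 292 and 276 CPM without and 268, 391 and 303 CPM with DOX. This value rested on DOX-positive 2 and was -0.03 without it. Its paralog RPS27L had 14.6, 15.4 and 15.8 CPM without and 14.6, 14.6 and 14.5 CPM with DOX (log2 fold change -0.07, SE 0.08).

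RPS10 had the largest difference of any member in size. This head protein gave 2.60, 2.42 and 3.47 CPM without and 2.25, 2.15 and 1.98 CPM with DOX, and the groups did not overlap. The log2 fold change was -0.40 (SE 0.16, 95% interval -0.76 to -0.05, edgeR adjusted p = 0.174), and -0.25 without DOX-negative 3. The table also held a pseudogene entry, RPS10P7, at a like level and with the opposite order. RPS10P7 had 2.50, 2.39 and 1.66 CPM without and 3.15, 2.55 and 2.71 CPM with DOX (log2 fold change 0.35, SE 0.17, edgeR adjusted p = 0.264). When the counts of pseudogene entries were added to their parent genes, the RPS10 value became -0.02 (adjusted p = 0.937). Whether reads shared by RPS10 and its copy were split between the entries was not tested, and the value of RPS10 alone is uncertain.

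Processed pseudogenes are numerous in this family, because the mRNAs are abundant and were often copied back into the genome. RefSeq lists 1966 pseudogenes for 77 of the members, and 31 of them, copies of 19 members, had an entry in the count table. These entries held counts equal to 0.578% of the members' own counts. RPSAP58 was the most abundant at 58.3 CPM, or 15.2% of the level of RPSA, followed by RPL13AP5 at 34.5 CPM. RPL23A and RPL13A had the most entries, 6 and 5, and their own log2 fold changes were 0.04 (SE 0.08) and 0.0056 (SE 0.09). Of 22 pseudogene entries tested, 0 were called by edgeR and 5 had an unadjusted p under 0.05, a share near the 21.1% of all genes.

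The members removed by the filter were RPL3L, RPL10L and RPL39L. RPL3L is known from striated muscle, and RPL10L and RPL39L from the testis. RPL10L had 3, 1 and 1 counts without and 0, 4 and 3 counts with DOX, RPL39L had 2 counts in DOX-positive 1 and 0 in the other libraries, and RPL3L had 1 count in each of 4 libraries and 0 in the other two. Their partners RPL3, RPL10 and RPL39 were at 239, 120 and 227 TPM.

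The spread between libraries of one group was larger than the difference between the groups. For each member, the log2 CPM of a library was taken relative to its mean over the 6 libraries. The mean of these deviations over the 79 members was 0.07, -0.0015 and -0.09 in DOX-negative 1 to 3 and -0.05, 0.08 and -0.02 in DOX-positive 1 to 3. The within-group SD of this mean was 0.07, against a group difference of 0.01, and the SD of the members' deviations within a library had a median of 0.07. Of the 79 members, 76 lay above their own mean in DOX-negative 1, 61 in DOX-positive 2 and 41 in DOX-negative 2. DOX-positive 2 was the highest library for 39 members and DOX-negative 1 for 27, while DOX-negative 3 was the lowest for 37.

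**Figure D4:**
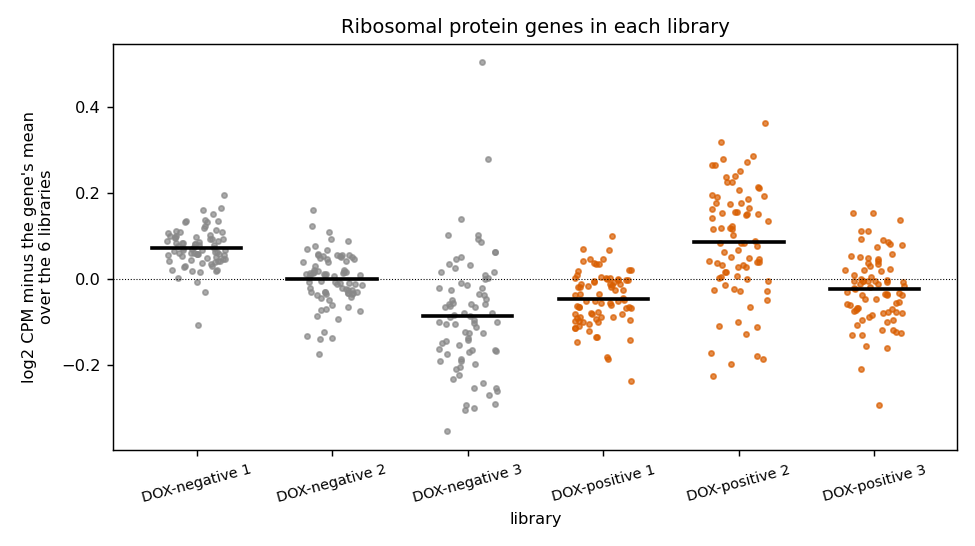
Log2 CPM of each of the 79 tested ribosomal protein genes minus its own mean over the 6 libraries (points), by library, with the mean of the points as a bar. DOX-negative 1 and DOX-positive 2 lie above 0 and DOX-negative 3 below, and the groups overlap.

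In DOX-positive 2 the deviations followed the GC content of the transcripts. Over the 79 members the correlation of deviation with GC content was 0.66 in this library and between -0.37 and -0.03 in the others. Deviations are taken from a mean over all libraries, so a rise in DOX-positive 2 is balanced by falls in the others together. The points share a library and a normalization, and the same correlation over all genes with a GC value was 0.55 in DOX-positive 2. The 27 members with the lowest GC content (42.3 to 48.2%) had a mean deviation of -0.01 there, and the 26 with the highest (52.7 to 62.8%) had 0.18. The log2 fold change between groups had a median of -0.02 in the 27 members lowest in GC content (9 positive), 0.02 in the 26 between (15 positive) and 0.04 in the 26 highest (19 positive), with Pearson's r = 0.26 and Spearman's rho = 0.31 over the 79 members. Over the 15830 tested genes with a GC value, Pearson's r was 0.11.

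DOX-positive 2 also had the largest share of 5 abundant structured RNAs (RN7SK, RN7SL1, RN7SL2, RPPH1 and SNORD3A), 16.9% of its counts against 11.1 to 13.9% in the other libraries. The part of these differences in the members' values was not tested. Without DOX-positive 2, the median log2 fold change of the members was -0.03 and 0 were called. In fits chosen after seeing the data, with GC and length trends removed or with protein-coding genes alone, 0 members were called.

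**Figure D5:**
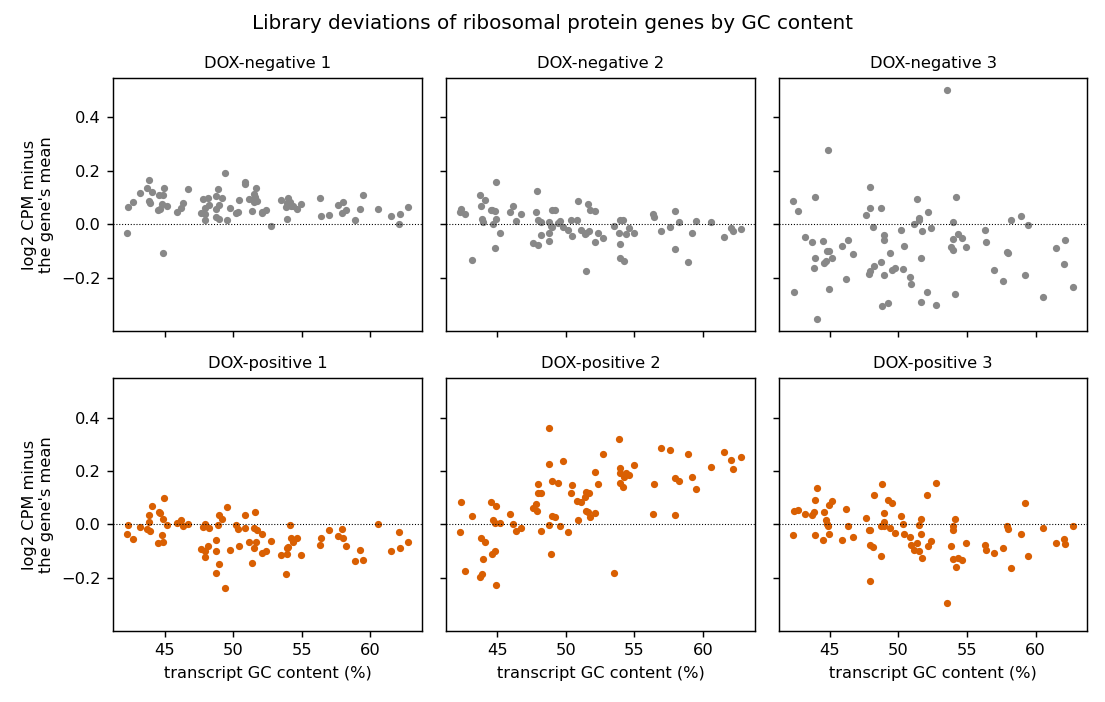
Deviation of the log2 CPM of each tested ribosomal protein gene from its own mean (vertical axis) against the GC content of its transcripts in percent (horizontal axis), 1 panel for each library. The points climb with GC content in DOX-positive 2 (r = 0.66) and are flat or slope slightly downward in the others. The mean includes DOX-positive 2, so its climb is balanced by the others together.

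Genes around the ribosome were examined in lists by function. Of the ribosomal proteins outside the symbol rule, FAU and RACK1 were not called. FAU, which encodes RPS30 fused to a ubiquitin-like protein, had 238, 234 and 213 CPM without and 241, 278 and 237 CPM with DOX (log2 fold change 0.14, SE 0.08), and RACK1, a scaffold on the small-subunit head, had -0.05 (SE 0.09). Of 77 tested mitochondrial ribosomal protein genes, which build the separate ribosome of the mitochondrion, 0 were called and the median was -0.0032 (38 positive and 39 negative). Unadjusted p was under 0.05 for 5 of the 77, and the groups did not overlap for 14, shares of 6.49 and 18.2% against 21.1 and 28.1% of all genes. For these and the other lists the tool was edgeR.

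Translation factors and other known TOP mRNAs gave 0 calls of 21, against 4.87% of all genes, with a median of 0.01. An unadjusted p was under 0.05 for 3 of them, EEF1A1, PABPC1 and NACA (14.3%, against 21.1% of all genes). EEF1A1, the elongation factor that delivers aminoacyl-tRNA and the classic TOP mRNA, had 2635, 2487 and 2583 CPM without and 2203, 2298 and 2235 CPM with DOX. PABPC1, the poly(A)-binding protein, had 2197, 2193 and 1846 CPM without and 2376, 2226 and 2568 CPM with DOX. The groups of each gene did not overlap, in opposite directions, and neither passed: log2 fold changes were -0.19 (SE 0.07, edgeR adjusted p = 0.136) and 0.20 (SE 0.09, edgeR adjusted p = 0.221).

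Of 15 genes of mTORC1 and its control of TOP mRNAs, 1 was called, near the 4.87% of all genes, and 4 had an unadjusted p under 0.05 (26.7%, against 21.1%). EIF4EBP1, which encodes the translation repressor 4E-BP1, had 74.4, 70.0 and 65.6 CPM without and 84.0, 101 and 94.1 CPM with DOX. Every DOX-positive library was above every DOX-negative library, and the log2 fold change was 0.41 (SE 0.09, edgeR adjusted p = 0.0218). The call was lost without DOX-negative 2 (adjusted p = 0.102), DOX-negative 3 (0.135) or DOX-positive 3 (0.0503). LARP1 had 408, 389 and 364 CPM without and 387, 402 and 414 CPM with DOX (log2 fold change 0.05, SE 0.07). TSC1, a brake on mTORC1, and RPTOR, the substrate-binding subunit of the complex, had negative values of -0.26 (SE 0.07) and -0.27 (SE 0.09) with edgeR adjusted p of 0.0681 and 0.107. The median of the list was -0.02 (6 positive and 9 negative). Of 11 chaperones and importers of ribosomal proteins and of 6 RSK and MSK kinases, 0 were called, with medians of -0.0061 and 0.10. At an unadjusted p under 0.05 there were 1 (9.09%) and 0 genes, against 21.1% of all genes.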

How the data were processed

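The authors deposited STAR gene counts, raw and per gene symbol, for 6 libraries, and TPM values for the same libraries; versions, annotation, strand setting and the treatment of multiply mapped reads were not given in the sources used here. Submitters' processing notes name STAR, DESeq2 and GRCh38. Groups came from sample titles. In these data, low-count genes were removed with filterByExpr and 17026 genes were fitted with edgeR 4.0.16 in R 4.3.3 (TMM factors of 0.967 to 1.03, robust quasi-likelihood test, two-sided, Benjamini-Hochberg over all genes tested, called at an adjusted p under 0.05). SEs came from the F statistic. CPM use TMM library sizes. The fit was tested on simulated data. Alternatives were DESeq2 1.42.0, limma 3.58.1 on log2(TPM + 1) and log2(TPM + 0.1), other scalings and filters, and each library left out. GC content came from GENCODE transcripts.

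The members and lists were chosen with earlier results of these data known. Genes were named by rule: called members, the 6 highest and 4 lowest members in TPM, the 4 largest and 4 most negative changes, stalk and paralog pairs, RPL5, RPL11, RPSA, RPS6, RPS27A, RPS3 and RPS4X, the 2 members with most pseudogene entries, and up to 4 called genes in each list; RPS7, RPL15, RPS29, FAU, RACK1, EEF1A1, PABPC1, LARP1, TSC1, RPTOR and the pseudogenes were added after their values were seen. Some genes are not reported here.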

Additional observations from a re-analysis of the deposited data

How the results depend on the processing

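The count of 0 called ribosomal protein genes was the same in 23 alternatives, with a lowest adjusted p of any member of 0.0889 (RPLP1 without DOX-positive 1). Their median log2 fold change was -0.0095 to 0.03 over fits to all libraries, and -0.03 to 0.05 when 1 library was left out. The difference in summed share was 0.0178 to 0.0783 percentage points over all libraries and -0.063 to 0.094 when 1 was left out. The denominators were not alike: 0.0783 was of TPM, while the main difference of 0.0184 was of all counts. Removing the length trend was not run for this share. The related lists gave 1 call, and 2 with upper-quartile factors, with no low-count filter or with the length trend removed, 5 with DESeq2 and 0 in each of the 3 TPM fits. Of alternatives chosen after seeing the data, removing GC and length trends gave 9 and protein-coding genes alone gave 3. Leaving out 1 library gave 0 (DOX-negative 2 or 3) to 6 (DOX-positive 2). Calls over all genes went from 829 to between 58 (without DOX-negative 3) and 1035 (without DOX-positive 1), and the other alternatives gave 0 (log2(TPM + 1) without a filter) to 2051 (GC and length trends removed). The cause of these differences was not tested. MUC1 was -1.22 with an adjusted p of 0.286 in log2(TPM + 1) without a filter, and -1.37 to -1.22 when 1 library was left out.

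Over all genes tested, same-numbered libraries did not deviate together from their group means (r = -0.34, 0.01 and -0.12). With 3 libraries a group, these values cannot tell whether the numbers pair them, and the main fit had no pairing. With the replicate block, 0 members and 2 genes of the related lists were called, and 998 of all genes. For genes named by rule other than MUC1, 505 comparisons with fits to all libraries stayed on their side of the threshold and 3 did not, and 177 and 3 with 1 library left out; the 6 losses were all of EIF4EBP1, in the 3 TPM fits and without DOX-negative 2, DOX-negative 3 or DOX-positive 3. The sign changed in 27 of the first and 29 of the second, among genes that were not called. RPL3L, RPL10L and RPL39L had too few counts to be tested, and the widest SEs were those of RPS10 (0.16), RPL36A (0.15) and RPL17 (0.12), the tested members with the fewest counts.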
